A study of Mus musculus with 32 samples.

Results

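Type 1 cannabinoid receptor signalling was followed in mouse striatum through 7 genes: Cnr1, which encodes the receptor CB1, and 6 genes for enzymes that make or break down its lipid ligands. The enzymes were the diacylglycerol lipases Dagla and Daglb, the phospholipase Napepld, and the hydrolases Mgll, Abhd6 and Faah. The genes were listed by name with no threshold on measured values, but with earlier results of these data known, and all 7 were found among the 55415 features counted. The libraries come from 4 groups of 8 mice. YAC128 mice carry the full human huntingtin gene with an expanded repeat on a yeast artificial chromosome, on a B6 background, and are a model of Huntington disease. The first group was YAC128 mice treated with AON12.1, which the title of the series describes as aimed at the caspase-6 cleavage site of HTT. The second was YAC128 mice given a scrambled oligonucleotide, the third YAC128 mice given artificial cerebrospinal fluid (aCSF), and the last wild-type (WT) littermates given aCSF. No group held WT mice given an oligonucleotide, so an effect of AON12.1 or of the scrambled sequence without the transgene was not measured. All 4 groups carried a cannula in the lateral ventricle and received 3 injections of 10 µL, starting near 6 months of age and repeated after 2 and 4 weeks, each with 500 µg of oligonucleotide in the oligonucleotide groups. All mice were scanned by MRI and killed at 12 months, so the values describe tissue taken months after the last injection.

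CB1 is a Gi/o-coupled receptor that sits mainly on axon terminals, where it lowers transmitter release. Its ligands are made on demand in the postsynaptic cell: diacylglycerol lipases release 2-arachidonoylglycerol (2-AG), and NAPE-PLD, encoded by Napepld, is one source of anandamide. Monoacylglycerol lipase, ABHD6 and fatty acid amide hydrolase end the signal. In striatum, CB1 is abundant on the projection neurons of both output pathways, and its loss is a known feature of Huntington disease.

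No member passed the test between any of the groups. The receptor stood at 76.1 ± 27.6 CPM after AON12.1, 77.5 ± 14.8 CPM after the scrambled oligonucleotide, 72.9 ± 21.98 CPM in YAC128 aCSF mice and 69.3 ± 16.4 CPM in WT mice (SD, n = 8 each). CPM are counts scaled to the size of each library, here with TMM factors. The widest difference of any member was that of Faah between the scrambled group and WT, at a log2 fold change of 0.36 ± 0.18 (SE). Across the 6 members deep enough to test and the 7 comparisons made, the 95% intervals of the ratios ran between 0.681 and 1.65, so larger differences lay outside every interval. Both limits were those of Faah. Over the same comparisons the limits were 0.751 and 1.45 for Cnr1 and 0.874 and 1.25 for Abhd6. Differences within the interval of a gene were not resolved. A p-value that misses the threshold does not show that groups are alike.

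Counts per library ran from 658934 to 1419313 over all genes, and the 7 members were covered unequally. Mgll had 297 to 772 counts per library, Abhd6 42 to 113, Cnr1 31 to 119, Dagla 38 to 103, Faah 18 to 69 and Daglb 24 to 60. Napepld had 2 to 11 counts and did not pass the filter on low counts, which the other 6 members passed. The label striatum was checked against marker genes. Genes shared by striatal projection neurons summed to 3322 to 6155 CPM after AON12.1, 1988 to 4842 CPM after the scrambled oligonucleotide, 1784 to 3936 CPM in YAC128 aCSF and 2713 to 5532 CPM in WT libraries, with all 8 detected in every group. Markers of cortical excitatory neurons, which striatum should lack, summed to 77.9 to 621 CPM after AON12.1, 156 to 1358 CPM after the scrambled oligonucleotide, 66.9 to 604 CPM in YAC128 aCSF and 94.5 to 529 CPM in WT libraries. Markers of choroid plexus, which striatum should also lack, summed to 3306 CPM in YAC128 aCSF replicate 4, where the median of the group was 56.1 CPM. Their highest sums were 188 CPM after AON12.1, 68.9 CPM after the scrambled oligonucleotide and 76.2 CPM in WT libraries. In whole tissue, fewer cells of a type and less RNA per cell cannot be told apart.

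The start regions of Cnr1 are shown because the libraries sample the 3′ ends of transcripts, so 1 Cnr1 count pools transcripts from every start site and a switch between starts would go unseen. RefSeq lists 3 start windows for Cnr1 on the plus strand of mouse chromosome 4 (build GRCm38.p6) and each window spans 300 bases around a start. They lie at chr4:33924014-33924313, chr4:33924394-33924693 and chr4:33926130-33926429. Capitals mark CG dinucleotides.
Cnr1 start 1: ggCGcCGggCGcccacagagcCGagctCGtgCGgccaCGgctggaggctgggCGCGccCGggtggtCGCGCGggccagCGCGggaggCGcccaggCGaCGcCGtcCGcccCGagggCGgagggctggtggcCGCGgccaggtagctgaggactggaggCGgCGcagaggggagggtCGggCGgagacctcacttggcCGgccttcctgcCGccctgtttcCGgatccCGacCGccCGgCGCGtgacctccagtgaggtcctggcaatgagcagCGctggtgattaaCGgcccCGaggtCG
Cnr1 start 2: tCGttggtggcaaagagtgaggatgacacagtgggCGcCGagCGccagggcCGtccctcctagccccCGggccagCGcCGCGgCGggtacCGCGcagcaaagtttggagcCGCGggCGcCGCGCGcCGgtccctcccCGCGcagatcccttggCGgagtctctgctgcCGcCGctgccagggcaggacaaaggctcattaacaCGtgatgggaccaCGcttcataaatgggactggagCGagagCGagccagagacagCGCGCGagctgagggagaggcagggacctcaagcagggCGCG
Cnr1 start 3: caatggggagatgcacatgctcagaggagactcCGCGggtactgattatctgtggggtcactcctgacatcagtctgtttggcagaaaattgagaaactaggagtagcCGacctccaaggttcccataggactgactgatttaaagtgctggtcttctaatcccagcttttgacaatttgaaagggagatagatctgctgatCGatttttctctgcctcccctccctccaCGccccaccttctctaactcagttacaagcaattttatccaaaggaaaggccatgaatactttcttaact
The first window is 76.3% G and C with 40 CG dinucleotides and the second 69.0% with 33. The third is 46.3% with 5, below the medians of 52.7% and 7 over the 32841 RefSeq windows of this length that were read. These leave out 1 chromosome and any window with undetermined bases. The letters GGGCGG, read on both strands, occur 5 times in the first Cnr1 window and not in the other pair, and 35.7% of the 32841 windows hold them. The letters TATAAA, also read on both strands, occur in none of the 10 windows listed for 6 of the members, against 13.6% of the 32841 windows. Dagla was not matched to a window.

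Cnr1 (ENSMUSG00000044288, chromosome 4), the receptor, varied more between mice than between groups. After AON12.1 its lowest, median and highest levels were 34.0, 81.3 and 126 CPM. After the scrambled oligonucleotide they were 51.6, 77.3 and 101 CPM. In YAC128 aCSF mice they were 55.2, 62.3 and 112 CPM, and in WT mice 40.0, 69.8 and 88.9 CPM. The AON12.1 group held both the lowest and the highest library of the series, and all 4 groups overlapped. In YAC128 aCSF mice, 5 of 8 libraries lay close together between 55.2 and 63.4 CPM and 3 lay well above them. The log2 fold change of YAC128 aCSF over WT was 0.08 ± 0.19 (SE), with a 95% interval of the ratio from 0.816 to 1.37 (edgeR quasi-likelihood test, Benjamini-Hochberg adjusted p = 0.910). For AON12.1 over scrambled it was -0.04 ± 0.18, with a ratio interval from 0.751 to 1.25 (edgeR, adjusted p = 0.981). For AON12.1 over YAC128 aCSF it was 0.04 ± 0.18 (ratio interval 0.794 to 1.32) and for scrambled over YAC128 aCSF 0.08 ± 0.18 (ratio interval 0.820 to 1.36). A test of any difference among the 4 groups gave an adjusted p of 0.927 for Cnr1 (edgeR).

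**Figure D1:**
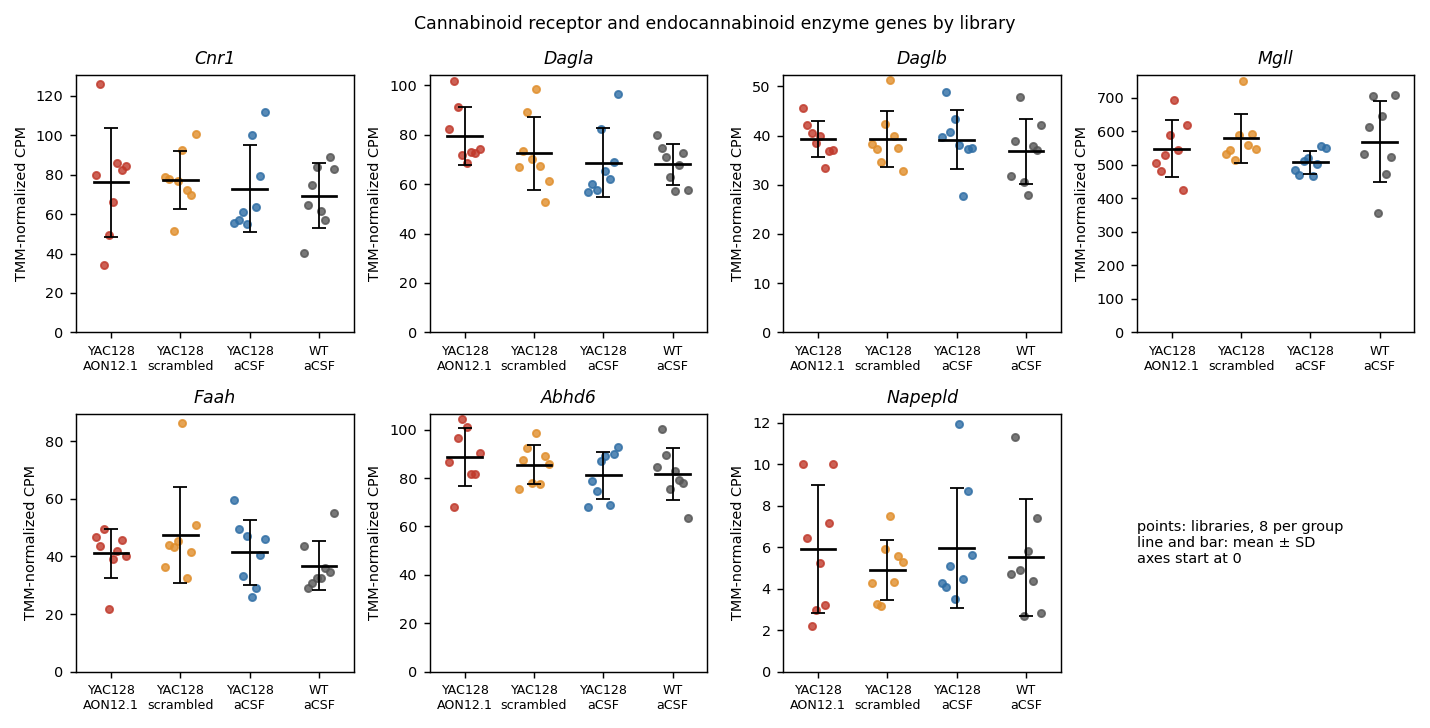
Each panel plots 1 gene, with TMM-normalized CPM on an axis that starts at 0, and each point is 1 library of the group named below it, with the mean and SD as a line and bar (n = 8). For every gene the points of the 4 groups overlap, and single libraries stand apart for Mgll and Faah in the scrambled group, at 749.8 and 86.23 CPM.

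The 2-AG-forming lipases came next in the pathway. Dagla (ENSMUSG00000035735, chromosome 19), which encodes the lipase responsible for most 2-AG in adult brain, had lowest, median and highest levels of 68.4, 73.8 and 102 CPM after AON12.1 and of 52.8, 68.7 and 98.7 CPM after the scrambled oligonucleotide. The same values were 56.8, 63.7 and 96.7 CPM in YAC128 aCSF mice and 57.1, 69.4 and 80.1 CPM in WT mice. All 8 AON12.1 libraries lay above the median of the YAC128 aCSF group and 7 of 8 above the WT median, but the ranges overlapped in each case. The mean was 79.5 ± 11.6 CPM after AON12.1, against 68.8 ± 13.9 CPM in YAC128 aCSF mice, a log2 fold change of 0.20 ± 0.12 (edgeR, adjusted p = 0.543). Against the 68.0 ± 8.20 CPM of WT mice the AON12.1 group had 0.22 ± 0.12 (unadjusted p = 0.0785, edgeR adjusted p = 0.411). Against the scrambled group, at 72.5 ± 14.9 CPM, it had 0.12 ± 0.12 with a ratio interval from 0.923 to 1.28 (edgeR, adjusted p = 0.889). Between YAC128 aCSF and WT mice Dagla differed by 0.02 ± 0.12, with a ratio interval from 0.856 to 1.20.

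Daglb (ENSMUSG00000039206, chromosome 5), the second diacylglycerol lipase, which is prominent in microglia, was level across the groups. Its means were 39.3 ± 3.69 CPM after AON12.1, 39.3 ± 5.65 CPM after the scrambled oligonucleotide, 39.2 ± 5.98 CPM in YAC128 aCSF mice and 36.8 ± 6.53 CPM in WT mice (SD, n = 8 each). Lowest, median and highest were 33.4, 39.2 and 45.5 CPM after AON12.1, and 32.8, 37.9 and 51.2 CPM after the scrambled oligonucleotide. They were 27.8, 38.9 and 48.8 CPM in YAC128 aCSF mice and 28.0, 37.4 and 47.8 CPM in WT mice, so the AON12.1 range was the narrowest and overlapped the other 3. The largest of its 7 comparisons was that of YAC128 aCSF over WT, at 0.11 ± 0.12 with a ratio interval from 0.911 to 1.27 (edgeR, adjusted p = 0.764). Daglb overlaps Rac1 on the opposite strand in the GRCm38 annotation, as Dagla does AC132148.1 and Napepld Gm15719. Since no source used here gives the strand setting, it is not known whether reads from the stretches they share were told apart.

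Napepld (ENSMUSG00000044968, chromosome 5), whose enzyme releases anandamide from its phospholipid precursor, was near the limit of detection. It had 44 counts in all after AON12.1, 37 after the scrambled oligonucleotide, 49 in YAC128 aCSF mice and 36 in WT mice, each over 8 libraries. No library was at 0. Its means were 5.92 ± 3.07 CPM after AON12.1, 4.92 ± 1.45 CPM after the scrambled oligonucleotide, 5.96 ± 2.91 CPM in YAC128 aCSF mice and 5.51 ± 2.81 CPM in WT mice (SD, n = 8 each). In a fit without the filter, the ratio of YAC128 aCSF to WT had a 95% interval from 0.676 to 1.88. The AON12.1 to scrambled ratio had one from 0.722 to 2.03. Differences within the interval of each comparison were not resolved.

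Mgll (ENSMUSG00000033174, chromosome 6) encodes monoacylglycerol lipase, the main enzyme that breaks down 2-AG in brain, and had the most counts of the 7 genes. Its lowest, median and highest levels were 425, 537 and 693 CPM after AON12.1 and 515, 554 and 750 CPM after the scrambled oligonucleotide. They were 466, 507 and 555 CPM in YAC128 aCSF mice and 355, 572 and 708 CPM in WT mice. The YAC128 aCSF libraries formed the narrowest group, and all 8 lay below the WT median, yet 4 of 8 WT libraries lay within or below their range. The mean was 507 ± 33.6 CPM in YAC128 aCSF mice, against 570 ± 122 CPM in WT mice, a log2 fold change of -0.16 ± 0.11 with a ratio interval from 0.768 to 1.04 (edgeR, adjusted p = 0.541). All 8 scrambled libraries lay above the YAC128 aCSF median. Their mean was 579 ± 74.0 CPM, and the log2 fold change over YAC128 aCSF was 0.19 ± 0.11 (unadjusted p = 0.0860, edgeR adjusted p = 0.578). AON12.1 differed from the scrambled group by -0.08 ± 0.11 (ratio interval 0.816 to 1.10), or by -0.016 without scrambled replicate 5, and from YAC128 aCSF by 0.11 ± 0.11 (ratio interval 0.930 to 1.26). In the GRCm38 annotation 5 predicted genes overlap Mgll, 3 of them on its own strand. It is not known how reads from the stretches they share were assigned.

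Abhd6 (ENSMUSG00000025277, chromosome 14), a membrane-bound hydrolase that degrades 2-AG on the postsynaptic side, had the smallest standard errors. Its means were 88.8 ± 11.9 CPM after AON12.1, 85.6 ± 8.11 CPM after the scrambled oligonucleotide, 81.2 ± 9.79 CPM in YAC128 aCSF mice and 81.7 ± 10.8 CPM in WT mice (SD, n = 8 each). Its lowest, median and highest levels were 68.0, 88.5 and 104 CPM after AON12.1, and 75.6, 86.7 and 98.7 CPM after the scrambled oligonucleotide. They were 68.2, 82.9 and 92.9 CPM in YAC128 aCSF mice and 63.4, 80.9 and 100.5 CPM in WT mice. The range of the scrambled and that of the YAC128 aCSF group lay within the WT range. The ratio of YAC128 aCSF to WT lay between 0.874 and 1.14 (95% interval, edgeR, adjusted p = 0.9997). That of AON12.1 to scrambled lay between 0.916 and 1.19 (edgeR, adjusted p = 0.938).

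Faah (ENSMUSG00000034171, chromosome 4), the main anandamide-degrading enzyme, had lowest, median and highest levels of 21.7, 42.8 and 49.4 CPM after AON12.1 and of 32.6, 43.5 and 86.2 CPM after the scrambled oligonucleotide. They were 26.1, 43.2 and 59.7 CPM in YAC128 aCSF mice and 29.2, 33.6 and 54.9 CPM in WT mice. The medians of the 3 YAC128 groups lay within 1 CPM of each other and above the WT median, while the ranges of all 4 groups overlapped. The scrambled group, at 47.5 ± 16.6 CPM, exceeded WT, at 36.7 ± 8.55 CPM, by 0.36 ± 0.18 on the log2 scale, with a ratio interval from 0.994 to 1.65 (unadjusted p = 0.0556, edgeR adjusted p = 0.521). Without scrambled replicate 5, the library at 86.2 CPM, this value was 0.19 (edgeR, adjusted p = 0.761). The 24 YAC128 libraries together averaged 43.3 CPM, and 19 of them lay above the WT median. Their log2 fold change over WT was 0.23 ± 0.15 with a ratio interval from 0.947 to 1.45 (edgeR, adjusted p = 0.520). For AON12.1 over scrambled it was -0.20 ± 0.18 (edgeR, adjusted p = 0.876), and -0.030 without scrambled replicate 5.

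Counted over the members, edgeR called 0 of 6 for YAC128 aCSF over WT, where 0.0749% of the 10679 genes tested were called, and 0 of 6 for AON12.1 over scrambled, where 0.14% were. It called 0 of 6 for AON12.1 over YAC128 aCSF, against 0.309% of all genes, and 0 of 6 for scrambled over YAC128 aCSF, against 0.0843%. Against WT it called 0 of 6 for AON12.1 (0.562% of all genes), for scrambled (0.169%) and for all YAC128 mice together (0.234%). A test of any difference among the 4 groups also called 0 of 6, against 0.777%. In each of the 7 comparisons 0 members had an unadjusted p under 0.05, against 7.25% to 14.5% of all genes, and DESeq2 called 0 of the members to which it gave an adjusted p. Those were all 6 in 4 comparisons, but 4 for AON12.1 over YAC128 aCSF, 2 for scrambled over YAC128 aCSF and 4 for all YAC128 over WT. With so few genes called in the whole table, a count of 0 among 6 is near the background and is not a result about the members. The median log2 fold change of the 6 members was 0.05 for YAC128 aCSF over WT and -0.02 for AON12.1 over scrambled, beside medians of -0.00 and 0.01 over all genes.

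**Figure D2:**
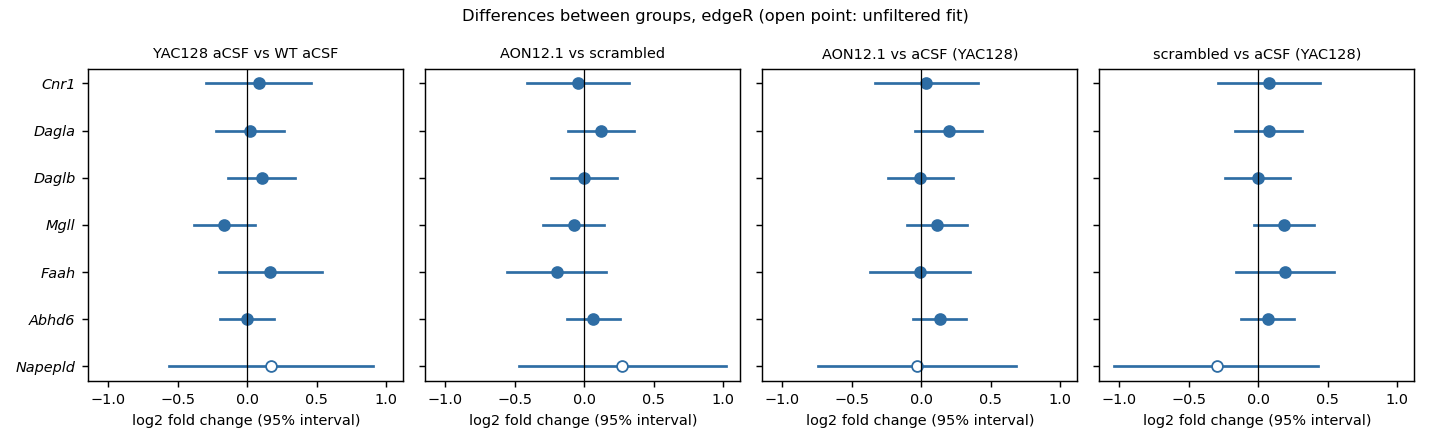
Points give the log2 fold change of each gene in 4 comparisons, named group over the group after "vs", and lines its 95% interval from the edgeR fit, with Napepld as an open point from the fit without a filter. Every interval includes 0, and the widest belong to Napepld, followed by Cnr1 and Faah.

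The members differed in how far single mice spread around their group mean. For Cnr1 the coefficient of variation within groups was 27.3%, against the 12.5% that counting alone would give at its depth. For Faah the same pair of values was 26.7% and 16.6%, and for Mgll 14.1% and 4.48%. Dagla, at 16.8% against 12.4%, and Abhd6, at 12.05% against 11.5%, were closer to counting error. Daglb, at 14.2% against 16.9%, and Napepld, at 45.2% against 47.3%, did not exceed it.

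The spread of Cnr1 ran with a property of the libraries. Between 16.3% and 33.7% of the counts of a library fell in no annotated feature, and this share averaged 23.8% ± 6.70 after AON12.1, 22.1% ± 2.41 after the scrambled oligonucleotide, 25.65% ± 4.92 in YAC128 aCSF and 19.5% ± 4.40 in WT libraries (SD, n = 8 each). Over the 32 libraries, log2 Cnr1 CPM fell with the share, with Pearson's r = -0.680 and Spearman's rho = -0.587. Permutation p-values were 3e-05 for r and 0.00056 for rho, and 0.00063 and 0.0118 after adjustment over 21 relations. With the 2 libraries of most extreme share left out, r was -0.570. Among the 11 animals whose number in the title begins with 18 it was -0.761, and within the 21 whose number begins with 19 it was -0.621. The labels do not say what these number series stand for. None of the other 5 tested members had an adjusted p under 0.05 for this relation, with r between -0.264 for Mgll and 0.116 for Abhd6.

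**Figure D3:**
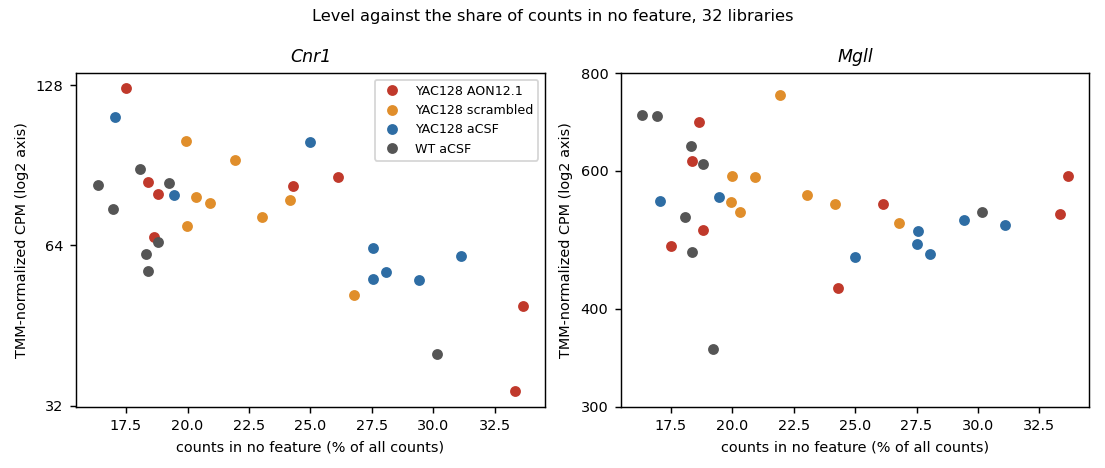
The level of Cnr1 (left) and Mgll (right), as TMM-normalized CPM on log2 axes, is plotted against the percentage of a library's counts that fell in no feature, with 1 point per library in its group's colour. Cnr1 falls along the axis with r = -0.680 over 32 libraries, and Mgll has r = -0.264.

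Cnr1 was therefore also fitted with the share as a term. YAC128 aCSF then exceeded WT by 0.47 ± 0.14 on the log2 scale, with a ratio interval from 1.14 to 1.69, against 0.08 ± 0.19 without the term. The unadjusted p was 0.00183, but over all genes it was not called (edgeR, adjusted p = 0.425). The share averaged 25.65% in YAC128 aCSF and 19.5% in WT libraries, where replicate 1 stood at 30.2% and the next highest at 19.2%. Share and genotype are thus partly confounded, and their parts in this value cannot be told apart. All YAC128 mice together exceeded WT by 0.40 ± 0.11 (unadjusted p = 0.00109, edgeR adjusted p = 0.154). AON12.1 differed from scrambled by 0.04 ± 0.13 and from YAC128 aCSF by -0.09 ± 0.13, and scrambled from YAC128 aCSF by -0.12 ± 0.13. The sign of these 3 values is opposite to that without the term. For the other 5 tested members the term moved no genotype value by more than 0.06.

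The 2 number series gave Cnr1 unlike values. AON12.1 over YAC128 aCSF was 0.82 among animals numbered from 18 (2 against 4 libraries, edgeR, adjusted p = 0.0528) and -0.40 among those numbered from 19 (6 against 4 libraries, edgeR, adjusted p = 0.696). YAC128 aCSF over WT was -0.04 in the first and 0.26 in the second, and AON12.1 over scrambled was 0.37 and -0.19. In the series from 18, the 2 AON12.1 libraries had 80.0 and 126 CPM of Cnr1 and the 4 YAC128 aCSF libraries 55.2 to 61.2 CPM. The difference between the series was not tested. In the series from 18 the no-feature shares were 18.8% and 17.5% in the AON12.1 libraries and 27.5% to 31.1% in the YAC128 aCSF libraries. In the series from 19 they were 18.4% to 33.7% after AON12.1 and 17.0% to 27.5% in YAC128 aCSF. The part of the share in the difference between the series was not tested either.

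To set the receptor beside other genes of the cells that carry it, Cnr1 was divided within each library by the summed level of projection neuron markers. Over the 5 measured markers of indirect pathway neurons (Penk, Adora2a, Drd2, Gpr6 and Sp9), the mean log2 ratio was -5.22 ± 0.49 in YAC128 aCSF mice, against -6.01 ± 0.50 in WT mice (SD, n = 8 each). All 8 YAC128 aCSF libraries lay above the WT median. WT replicates 4 and 7, at -5.62 and -4.92, lay within the YAC128 aCSF range. The difference was 0.79, or 0.92 and 0.78 within the 2 number series (two-sided exact permutation p = 0.00901, or 0.108 adjusted over 12 tests). Without WT replicate 7 it was 0.95 (exact permutation test, adjusted p = 0.0112), so 1 library decided this call. The ratio holds a change of its denominator: Penk and Adora2a fell in YAC128 aCSF mice (edgeR, adjusted p = 0.0495 each), and the summed markers had a median of 2797 CPM in YAC128 aCSF mice, against 4537 CPM in WT mice. Relative to 6 direct pathway markers, Cnr1 differed by 0.37, and relative to 8 markers shared by all projection neurons by 0.38, and neither was called (exact permutation test, adjusted p = 0.260 each).

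After AON12.1 these ratios were lower than after the scrambled oligonucleotide, by -0.51 for indirect, -0.55 for direct and -0.39 for shared markers, and none was called (exact permutation test, adjusted p = 0.260, 0.260 and 0.287). Within number series 18 the differences were -0.02 for indirect, -0.06 for direct and 0.20 for shared markers. Within number series 19 they were -0.67, -0.72 and -0.59. Relative to indirect markers the AON12.1 group averaged -5.74 ± 0.58, against -5.23 ± 0.59 in the scrambled group. Scrambled replicate 5 was highest, at -3.98, and without it the difference was -0.33 (exact permutation test, adjusted p = 0.287). AON12.1 replicates 3 and 4 were lowest, at -6.63 and -6.56, and had no-feature shares of 33.3% and 33.7%, the highest of the group. The other 6 AON12.1 libraries lay between -5.98 and -5.17. The summed markers themselves had higher medians after AON12.1 than after the scrambled oligonucleotide, at 3618 CPM after AON12.1 and 3062 CPM after the scrambled oligonucleotide for indirect markers, and at 1157 CPM after AON12.1 and 841 CPM after the scrambled oligonucleotide for direct markers.

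**Figure D4:**
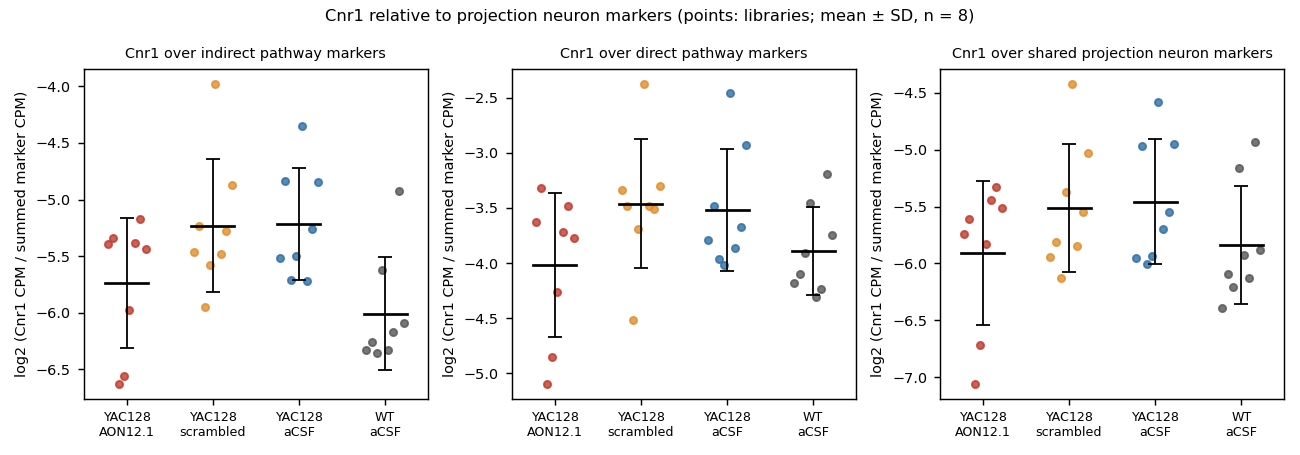
Each panel plots the log2 ratio of Cnr1 CPM to the summed CPM of 1 marker list, with 1 point per library and the mean and SD of each group (n = 8). Relative to indirect pathway markers all 8 YAC128 aCSF points lie above the WT median, and the AON12.1 and WT groups have the lowest means in all 3 panels.

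Breakdown of 2-AG was also set against its synthesis. The log2 ratio of Mgll to Dagla averaged 2.78 ± 0.36 after AON12.1, 3.01 ± 0.27 after the scrambled oligonucleotide, 2.90 ± 0.22 in YAC128 aCSF mice and 3.04 ± 0.40 in WT mice (SD, n = 8 each). The ranges overlapped, and no test was made of this ratio. Over the 32 libraries no pair of the 6 tested members had a correlation with an adjusted permutation p under 0.05. By Pearson's r the highest was that of Daglb and Faah, with r = 0.397 and rho = 0.329 (permutation p = 0.0237 and 0.0657, adjusted p = 0.198 and 0.276 over 21 relations). For these genes r was 0.309 without the 2 libraries farthest from the median of Daglb, 0.0230 within the number series from 18 and 0.531 within that from 19. By Spearman's rho the highest were Dagla with Abhd6 (rho = 0.469, r = 0.387) and Mgll with Abhd6 (rho = 0.448, r = 0.352), with permutation p-values for rho of 0.00713 and 0.0104 (adjusted p = 0.0725 each).

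The genes whose levels ran most like Cnr1 over the 32 libraries, among 7526 genes of at least 20 CPM, were Ap2m1 (Pearson's r = 0.81), Wbp2 (0.78), Vstm2b (0.76), Bcl2l2 (0.75) and Serinc3 (0.75), followed by Bzw1, Cops7a, Srebf2, Dact3 and Cadm4 (0.71 to 0.74). After group and no-feature share were taken out of both genes, r for these 10 was 0.42 to 0.65. In all, 283 genes had an r above 0.5 with Cnr1, 142 with Mgll, 79 with Faah, 41 with Dagla, 15 with Daglb and 14 with Abhd6. The closest to Dagla was Mindy3 (0.68), to Daglb Dcaf5 (0.61), to Mgll Lrrc20 (0.70), to Faah Mical2 (0.72) and to Abhd6 Tmem234 (0.56). The libraries share depth and tissue composition, so these values are descriptions.

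The rest of the pathway was read from 4 gene lists. Of 17 listed genes for other steps of endocannabinoid metabolism and transport, 11 were tested, and edgeR called 0 in each of the 7 comparisons. For YAC128 aCSF over WT, 10 of the 11 had a negative value, with a median of -0.13 on the log2 scale beside -0.00 over all genes. The other YAC128 groups were less one-sided. Positive values were found for 3 of the 11 for AON12.1 over WT (median -0.07) and for 5 for scrambled over WT (median -0.02). For YAC128 aCSF over WT, an unadjusted p under 0.05 was found for 1 of the 11, against 12.5% of all genes. That gene was Gde1, a phosphodiesterase of an alternative anandamide route, at 213 ± 30.4 CPM in YAC128 aCSF mice, against 246 ± 34.1 CPM in WT mice (-0.21 ± 0.10, edgeR, adjusted p = 0.375). Abhd4, which acts a step earlier on the same route, stood at 81.8 ± 12.5 CPM in YAC128 aCSF mice, against 94.1 ± 15.4 CPM in WT mice (-0.21 ± 0.10, edgeR, adjusted p = 0.406). Abhd12, a lysophospholipid lipase that can also hydrolyse 2-AG, stood at 277 ± 34.7 CPM in YAC128 aCSF mice, against 311 ± 48.0 CPM in WT mice (-0.17 ± 0.10, edgeR, adjusted p = 0.515). After AON12.1, Abhd4 averaged 101.0 ± 11.1 CPM, against 81.8 ± 12.5 CPM in YAC128 aCSF mice (0.30 ± 0.10, edgeR, adjusted p = 0.210).

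Of 15 genes for other cannabinoid-responsive receptors and partners of CB1, 6 were tested and 0 called in each comparison by edgeR. The second cannabinoid receptor gene Cnr2, of immune cells, averaged 0.506 CPM after AON12.1, 0.397 CPM after the scrambled oligonucleotide, 0 in YAC128 aCSF and 0.176 CPM in WT libraries. Trpv1, Gpr55, Gpr18 and Gpr119 were likewise at or near 0. Grk3, a kinase that phosphorylates activated receptors, stood at 60.9 ± 13.0 CPM in YAC128 aCSF mice, against 42.1 ± 13.7 CPM in WT mice (0.52 ± 0.17, unadjusted p = 0.00453, edgeR adjusted p = 0.207), and was named after its values were seen. Its levels in the other YAC128 groups were closer to WT, at 42.1 ± 10.6 CPM after AON12.1 and 47.0 ± 14.0 CPM after the scrambled oligonucleotide, with log2 fold changes over WT of 0.03 and 0.16. The 2 genes of this list with the highest levels were negative for YAC128 aCSF over WT, Grk2, a related kinase, at -0.09 ± 0.08 and Arrb1, an arrestin that binds phosphorylated receptors, at -0.16 ± 0.10 (edgeR, adjusted p = 0.693 and 0.523). Sgip1, which holds CB1 at the cell surface, had 0.25 ± 0.13 and Cnrip1, which binds the tail of CB1, 0.19 ± 0.13 in the same comparison (edgeR, adjusted p = 0.423 and 0.559). For AON12.1 over scrambled both were negative, at -0.03 and -0.16.

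Of 18 genes for G proteins, cyclases, kinases and channels downstream of CB1, 17 were tested, with 0 called by edgeR in each comparison and a median of -0.00 for YAC128 aCSF over WT. In that comparison 3 of the 17 had an unadjusted p under 0.05, against 12.5% of all genes. Gnao1, the Go alpha subunit, was 989 ± 71.5 CPM in YAC128 aCSF mice, against 1108 ± 117 CPM in WT mice (-0.16 ± 0.07, edgeR, adjusted p = 0.341). Adcy5, the main striatal adenylyl cyclase, was 497 ± 102 CPM in YAC128 aCSF mice, against 631 ± 133 CPM in WT mice (-0.34 ± 0.14, edgeR, adjusted p = 0.306), and 634 ± 112 CPM after AON12.1 (0.35 ± 0.14 over YAC128 aCSF, edgeR, adjusted p = 0.295). Adcy5 is also 1 of the 8 markers shared by projection neurons, which moved alike. Of these 8, 1 was positive for YAC128 aCSF over WT (median -0.24) and 8 for AON12.1 over YAC128 aCSF (median 0.43). Cacna1a, a calcium channel subunit of axon terminals, was 175 ± 37.3 CPM in YAC128 aCSF mice, against 133 ± 38.6 CPM in WT mice (0.40 ± 0.17, edgeR, adjusted p = 0.350), and differed from WT by 0.37 after AON12.1 and 0.32 after the scrambled oligonucleotide (edgeR, adjusted p = 0.322 and 0.560). Gnai2 and Gnb1, further G protein subunits, had values between -0.16 and 0.18 in every comparison among the YAC128 groups. Among the 13 genes upstream of 2-AG synthesis, all tested, edgeR called 0, and 12 had a positive value for scrambled over YAC128 aCSF, with a median of 0.21 beside -0.00 over all genes. Camk2a, a kinase known to restrain the lipase encoded by Dagla, averaged 693 ± 108 CPM after AON12.1 and 722 ± 145 CPM after the scrambled oligonucleotide, against 521 ± 83.0 CPM in YAC128 aCSF mice. These log2 fold changes of 0.41 and 0.47 were not called by edgeR (adjusted p = 0.116 and 0.199) but were by DESeq2. For AON12.1 over YAC128 aCSF, DESeq2 also called Gnao1 and Plcb1, a phospholipase that supplies diacylglycerol. For AON12.1 over WT it called Prkaca, a catalytic subunit of protein kinase A. Over all genes DESeq2 called 103 for AON12.1 over YAC128 aCSF, 34 for scrambled over YAC128 aCSF and 110 for AON12.1 over WT. In the same comparisons edgeR called 33, 9 and 60. Grm5, the receptor that drives 2-AG release in projection neurons, was 248 ± 61.8 CPM after AON12.1, against 217 ± 24.8 CPM after the scrambled oligonucleotide (0.19 ± 0.12, edgeR, adjusted p = 0.791). The summed cortical excitatory markers had medians of 255 CPM after AON12.1 and 356 CPM after the scrambled oligonucleotide, against 142 CPM in YAC128 aCSF mice, and their part in the values of Camk2a was not tested.

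**Figure D5:**
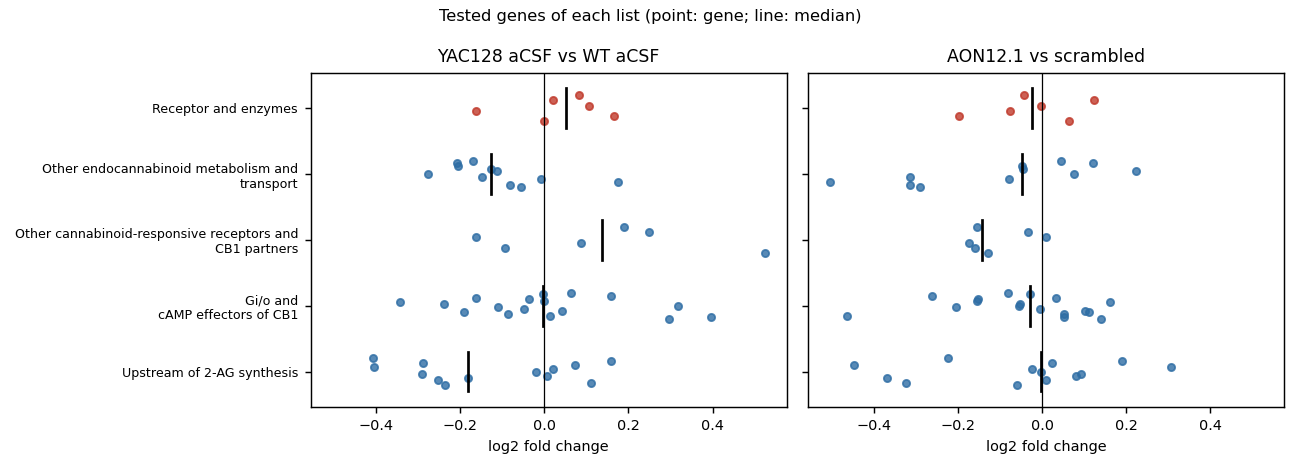
Points are the tested genes of each list and black lines the list's median, with the log2 fold change on the horizontal axis for YAC128 aCSF over WT (left) and AON12.1 over scrambled (right). No gene plotted was called by edgeR, and for YAC128 aCSF over WT 10 of 11 genes of other endocannabinoid metabolism lie below 0.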

How the data were processed

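Each of the 32 libraries comes from the striatum of 1 numbered mouse, 8 per group, so the spread between libraries includes that between animals. From each, 100 ng of total RNA was reverse transcribed, per the labels' protocols, with an oligo-dT primer carrying a sample barcode and a molecular identifier (modified mcSCRB-seq), which samples the 3′ ends of transcripts. Per the submitters' processing notes the tools were STAR 2.7.5a, HTSeq 0.12.4, cutadapt 2.10 and FastQC, on build GRCm39. Collapse by molecular identifier and strand setting are not given in the sources used here. The authors deposited raw counts per gene, 1 file per library, with 5 summary lines that were left out of the fits. Counts in no feature averaged 22.8% of a file, counts aligned more than once 8.80% and ambiguous counts 1.59%.

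Gene names and overlaps came from a GRCm38 annotation matched by identifier (52081 of 55415 features, with 99.806% of counts). The filter filterByExpr (minimum count 10, minimum total 15) left 10679 genes. All libraries entered 1 TMM-normalized quasi-likelihood fit in edgeR 4.0.16 (R 4.3.3) with a coefficient per group. P-values were adjusted by Benjamini-Hochberg over all genes tested, with calls at an adjusted p under 0.05. DESeq2 1.42.0, other size factors, no filter, the no-feature share or number series as a term, only the groups compared and leaving out each library were tried as alternatives. Values within the number series were added after the data were seen. Ratios of Cnr1 to markers were compared by exact permutation tests over 12870 splits, whose smallest two-sided p is 0.00016, and correlations of log2(CPM + 1) by 100000 permutations. Intervals of ratios rest on the spread between libraries. The fit was tested on simulated counts.

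The members and gene lists were chosen with earlier results of these data known. Named in the text were the 7 members, called genes, up to 4 genes per list by mean CPM, and the genes of highest correlation with each member (10 for Cnr1, 3 for the others, of which 1 is printed). Outside this rule, Grk3, Cacna1a, Prkaca, Cnr2, Trpv1, Gpr55, Gpr18, Gpr119, Cck and Sst were named after their values were seen. Comparisons with a group in common depend on each other.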

Additional observations from a re-analysis of the deposited data

Results flagged for a closer look

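In 3 of 40 groups of 8 libraries, a single library lay farther from the rest than the limit of Dixon's test allows, a limit that chance passes in about 1 of 20 groups. Mgll, the 2-AG-degrading lipase, stood at 749.8 CPM in scrambled replicate 5, with the next library of that group at 592 CPM. Faah, the anandamide-degrading hydrolase, stood at 86.23 CPM in the same library, with the next at 50.9 CPM. Faah stood at 21.69 CPM in AON12.1 replicate 4, with the next lowest library at 38.9 CPM. Scrambled replicate 5 also had the highest summed cortical excitatory markers of the series, at 1358 CPM, and AON12.1 replicate 4 the highest no-feature share, at 33.7%. The part of either in these values was not tested. Without scrambled replicate 5, the log2 fold changes of scrambled over YAC128 aCSF were 0.12 for Mgll and 0.01 for Faah, against 0.19 for each with it (edgeR, adjusted p = 0.761 and 0.993 without it).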

How the results depend on the processing

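No paired analysis was possible because the titles carry animal numbers and no replicate number shared between groups. In the alternatives fitted over both number series, 0 members were called in every comparison, with a lowest adjusted p of 0.154 (edgeR). Within a single number series, Cnr1 was read in every comparison. The other tested members were read there only for YAC128 aCSF over WT and for AON12.1 over scrambled. The lowest adjusted p among these within-series values was 0.0528, for Cnr1 (edgeR). The remaining within-series comparisons of the other members were not examined. DESeq2 gave no adjusted p to some members in 3 comparisons, nor to Daglb and Faah for any difference among the groups. Among members, values moved in size for Cnr1, with 0.47 for YAC128 aCSF over WT with the no-feature share as a term and 0.82 for AON12.1 over YAC128 aCSF within number series 18, and for Faah, with 0.014 for scrambled over YAC128 aCSF without scrambled replicate 5. The signs below also changed, and the cause was not tested. Abhd6 for YAC128 aCSF over WT turned to -0.00040 with RLE size factors, -0.013 without a filter, -0.016 with the no-feature share as a term, -0.0019 with DESeq2 and -0.23 within number series 18. With the number series as a term, Daglb became 0.040 for AON12.1 and 0.042 for scrambled over YAC128 aCSF, and Faah 0.011 for AON12.1 over YAC128 aCSF. With the no-feature share as a term, Cnr1 became 0.036 for AON12.1 over scrambled, -0.086 for AON12.1 over YAC128 aCSF and -0.12 for scrambled over YAC128 aCSF, and Daglb 0.0051 for AON12.1 over scrambled.

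Within series 18, YAC128 aCSF over WT was -0.042 for Cnr1 and -0.22 for Dagla, and AON12.1 over scrambled was 0.37 for Cnr1, 0.22 for Daglb, 0.18 for Faah and -0.062 for Abhd6. Within series 19, YAC128 aCSF over WT was -0.066 for Faah, and Cnr1 was -0.40 for AON12.1 over YAC128 aCSF, -0.20 for scrambled over YAC128 aCSF and -0.14 for AON12.1 over WT. Ratios of Cnr1 to markers also changed sign within series 18, to 0.024 (indirect, AON12.1 over YAC128 aCSF), 0.043 (indirect, scrambled over YAC128 aCSF), 0.34 (direct, AON12.1 over YAC128 aCSF), 0.20 (shared, AON12.1 over scrambled) and 0.042 (shared, AON12.1 over YAC128 aCSF), and within series 19 to -0.25 (direct, scrambled over YAC128 aCSF). Over all libraries, AON12.1 over YAC128 aCSF was -0.52 for indirect, -0.49 for direct and -0.45 for shared markers (exact permutation test, adjusted p = 0.260 each). Within series 19 these differences were -0.82, -0.96 and -0.79. Scrambled over YAC128 aCSF was -0.012 for indirect and 0.060 for direct markers over all libraries.

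Leaving out 1 library at a time, Cnr1 ran from -0.024 to 0.15 for YAC128 aCSF over WT, from -0.17 to 0.067 for AON12.1 over scrambled, from -0.091 to 0.14 for AON12.1 over YAC128 aCSF and from -0.0021 to 0.23 for AON12.1 over WT. Abhd6 ran from -0.035 to 0.051 and Dagla from -0.058 to 0.066 for YAC128 aCSF over WT. Daglb ran from -0.039 to 0.055 for AON12.1 over scrambled, from -0.071 to 0.046 for AON12.1 over YAC128 aCSF and from -0.071 to 0.048 for scrambled over YAC128 aCSF. Dagla ran from -0.0041 to 0.16 for scrambled over YAC128 aCSF, Faah from -0.086 to 0.084 for AON12.1 over YAC128 aCSF and Mgll from -0.046 to 0.079 for scrambled over WT. The ratio of Cnr1 to indirect markers ran from 0.67 to 0.95 for YAC128 aCSF over WT and from -0.19 to 0.11 for scrambled over YAC128 aCSF, that to direct markers from -0.095 to 0.21 and that to shared markers from -0.21 to 0.069 for scrambled over YAC128 aCSF.

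The background count of genes called moved more. For YAC128 aCSF over WT it was 8, with 21 without a filter, 4 with the share as a term, 38 by DESeq2 and 3 to 142 without 1 library, the highest without WT replicate 1. For AON12.1 over YAC128 aCSF it was 33, with 57 without a filter, 103 by DESeq2 and 26 to 73 without 1 library. For scrambled over YAC128 aCSF it was 9, with 14 without a filter, 5 with the number series as a term, 5 with only these groups, 34 by DESeq2 and 3 to 13 without 1 library. For AON12.1 over scrambled it was 15, with 7 with only these groups. For AON12.1 over WT it was 60, with 110 by DESeq2 and 49 to 97 without 1 library. For scrambled over WT it was 18, with 33 without a filter, 28 with the share as a term, 34 by DESeq2 and 10 to 27 without 1 library. For all YAC128 over WT it was 25, with 48 without a filter, 74 by DESeq2 and 13 to 103 without 1 library. Depth limits Napepld most, and Daglb and Faah next.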

Other observations

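Cholecystokinin interneurons are a known carrier of CB1. Cck, which cortical neurons also express, averaged 142 ± 88.3 CPM after AON12.1, 228 ± 181 CPM after the scrambled oligonucleotide, 119 ± 113 CPM in YAC128 aCSF mice and 146 ± 73.0 CPM in WT mice (SD, n = 8 each). Sst, a marker of another interneuron class, averaged 1342 ± 132 CPM after AON12.1 and 1336 ± 138 CPM after the scrambled oligonucleotide, against 1035 ± 202 CPM in YAC128 aCSF mice. Neither gene was called in any of the 7 comparisons by edgeR (adjusted p of at least 0.488 for Cck and of at least 0.125 for Sst). Both were chosen after their values were seen, from a list of 10 interneuron markers. Of these 10, 6 had a positive log2 fold change for AON12.1 over YAC128 aCSF (median 0.04). For scrambled over YAC128 aCSF 4 did (median -0.07), so the list as a whole did not share the higher level of Sst. For YAC128 aCSF over WT 1 of the 10 was positive (median -0.18), and only Sst had an unadjusted p under 0.05 (edgeR).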
